A study of Homo sapiens with 12 samples.

Results

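The genes described here are 9 human genes of cellular iron handling, chosen by gene symbol from the 25733 genes of an RNA sequencing table. They comprise the uptake genes TFRC, STEAP3 and SLC11A2, the ferritin subunit genes FTH1 and FTL, the ferritinophagy receptor gene NCOA4, the exporter gene SLC40A1, and ACO1 and IREB2, which encode the iron regulatory proteins. All 9 were found, and all 9 passed the filter of a mean FPKM of at least 1 that left 12341 genes for testing. FPKM are reads scaled by gene length and by a total for each library.

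The cells were HCT116, an established human colon cancer line, in 4 groups of 3 libraries. Control cells had no treatment, and the other groups received TGF-β, NH4Cl as a source of ammonia, or NH4Cl together with TGF-β. By the study's methods, NH4Cl was used at 10 mM for 24 h, and TGF-β at 200 pM for 1 h after 23 h with vehicle or with NH4Cl. The labels of the libraries carry no dose or time. Reads on genes came to 14807630 to 18191998 per library (median 15484798).

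Of the colon epithelial markers, EPCAM (229 to 278 FPKM), KRT8 (754 to 1100), KRT18 (727 to 1180), VIL1 (81.5 to 101), CDH1 (14.9 to 23.2) and CDX2 (12.5 to 15.1) were present in every library, and LGALS4 was low at 0.732 to 1.70 FPKM. Among markers of other cells, COL1A1 reached 2.62 FPKM and VWF 6.44 FPKM, whereas COL1A2, DCN, PDGFRB, CD3E, HBB and PECAM1 stayed at or under 0.289 FPKM.

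Cells take up iron mainly as transferrin bound to its receptor, and the acid of endosomes and lysosomes frees iron from transferrin and from ferritin that NCOA4 has delivered for breakdown. When iron is scarce, the iron regulatory proteins bind a hairpin called the iron-responsive element (IRE): in the 5′ UTR of the ferritin and ferroportin mRNAs this binding blocks translation, and in the 3′ UTR of the TFRC mRNA it protects the mRNA from decay. NH4Cl is a weak base that raises the pH of acidic compartments, so the question asked of these genes was whether NH4Cl gave the mRNA pattern of iron shortage. A block on translation is not visible in RNA amounts, so of the IRE mRNAs it is TFRC whose RNA level reports most directly on the iron regulatory proteins.

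The IREs are shown because their place, 5′ or 3′, sets TFRC apart from FTL and SLC40A1. The transcripts of GENCODE release 29 on GRCh38 were searched in the sense direction for the loop CAGTGN (capitals) preceded by a C and 5 bases and followed by 5 bases able to pair with them, G with T included, and the 29 bases around matches in UTRs of 3 members are printed 5′ to 3′.
FTL, 5′ UTR: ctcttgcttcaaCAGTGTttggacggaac
SLC40A1, 5′ UTR: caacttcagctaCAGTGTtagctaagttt
TFRC, 3′ UTR, a: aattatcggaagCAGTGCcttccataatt
TFRC, 3′ UTR, b: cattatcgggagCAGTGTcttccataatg
TFRC, 3′ UTR, c: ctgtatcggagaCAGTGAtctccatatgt
TFRC, 3′ UTR, d: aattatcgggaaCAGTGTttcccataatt
The FTL element lies at chr19:48965335-48965363 on the plus strand, in the 1 coding transcript of the gene. The SLC40A1 element lies at chr2:189580661-189580689 on the minus strand, and was found in 1 transcript. Only transcripts of protein-coding type were searched. The 4 TFRC elements lie on the minus strand and were each found in 3 transcripts, at chr3:196050979-196051007 (a), chr3:196050575-196050603 (b), chr3:196050510-196050538 (c) and chr3:196050463-196050491 (d). Of 19684 protein-coding genes, 36 (0.183%) held such a hairpin in a 5′ UTR, 132 (0.671%) in a 3′ UTR and 130 (0.66%) in the coding sequence. The C and the loop without the pairing occurred anywhere in transcripts of 13820 (70.2%). These letters, paired in this way, were not found in the annotated UTRs of STEAP3, SLC11A2, NCOA4, ACO1 or IREB2. The search allowed no unpaired base within the 5 pairs, so it cannot show that SLC11A2 or any of these mRNAs lacks an IRE. A match is a description of the sequence, not evidence of binding.

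Levels of the 9 genes, which FPKM allows to be compared per length, spanned from FTL with a mean of 1660 FPKM over the 12 libraries, in place 15 of 25733 genes, to SLC40A1 with 3.34 FPKM, in place 8729. Between them came FTH1 (403), TFRC (85.2), NCOA4 (42.6), IREB2 (14.6), ACO1 (6.13), SLC11A2 (5.60) and STEAP3 (4.78). The 5 most abundant genes were separated from each other and from the rest in every library. The lowest 4 were not: the library ranges of ACO1 (5.55 to 6.72), SLC11A2 (4.71 to 5.89), STEAP3 (3.03 to 6.26) and SLC40A1 (2.88 to 3.93) overlapped from each gene to the next. Counting error was 0.886% to 1.10% of the level for TFRC, with 8272 to 12750 reads per library, and 6.17% to 7.33% for SLC40A1, with 186 to 263 reads.

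**Figure D1:**
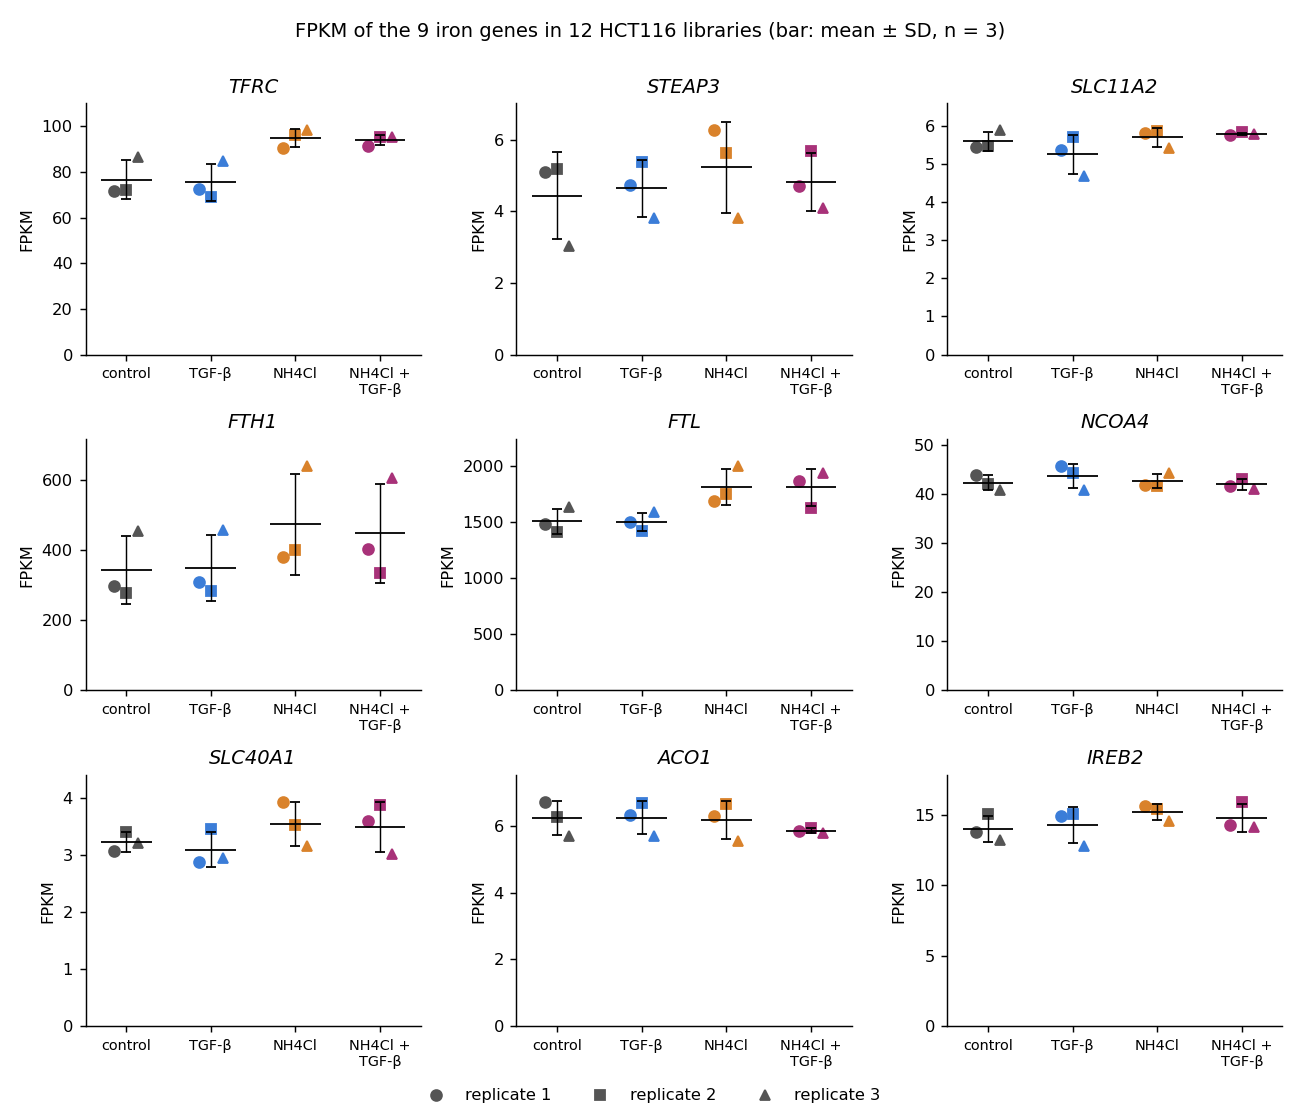
FPKM of each of the 9 genes (vertical axes, from 0) in the 4 groups (horizontal axes), where symbols are single libraries by replicate number, bars are group means with the SD of 3 libraries. TFRC lay at 90.3 to 98.2 FPKM in the 6 libraries with NH4Cl and at 69.1 to 86.4 FPKM in the 6 without it, while FTH1 and STEAP3 differed most by replicate number.

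With NH4Cl, the RNA of the transferrin receptor and of both ferritin subunits was higher, by 1.20 to 1.32 times on the log2(FPKM + 1) scale averaged over the presence of TGF-β. The other 6 genes, those of reduction, divalent metal transport, ferritinophagy, export and iron sensing, did not pass the threshold. In bulk RNA, fewer cells of a type and less RNA per cell cannot be told apart. No source says that replicates came from separate cultures, so p measures the spread between these libraries. A limma model of all 12 libraries was used, with an adjusted p of 0.05 as the threshold. Replicate 3 stood apart in every group, so each call is also given from a model blocked on replicate number where the block changes it. That numbers 1 and 2 pair the libraries was not shown. Without the block, 2 of the 9 members were called higher with NH4Cl, TFRC and FTL, where 3.74% of all genes tested were called higher and 6.14% in either direction. With the block, 3 members were called higher, FTH1 being added, where 16.1% of all genes were called higher and 31.0% in either direction. The median log2 change of the 9 members was 0.12, beside -0.000612 for all genes tested. Scaling bore on the share of upward calls among all genes: without the block it was 60.9% (462 higher, 296 lower), and 75.1% (367 higher, 122 lower) with libraries scaled to the same FPKM sum. With the block it was 51.7% (1981 higher, 1849 lower), and 45.7% (1787 higher, 2124 lower) with medians of the libraries made equal, so the majority turned.

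TFRC (ENSG00000072274; chromosome 3, 196027183 to 196082189, minus strand) encodes the transferrin receptor, the main port of entry for iron. Its FPKM was 71.6, 71.9 and 86.4 in control cells and 72.65, 69.1 and 84.5 with TGF-β. It was 90.3, 96.1 and 98.2 with NH4Cl and 91.4, 95.3 and 95.2 with both treatments. Every library with NH4Cl was above every library without it, and TFRC was the only one of the 9 genes of which this held, as it did of 3.57% of all genes tested. The spread also differed between groups, with an SD of 8.43 FPKM in control cells and 2.23 FPKM with both treatments (n = 3 each), as replicate 3 stood apart in the groups without NH4Cl. Averaged over TGF-β, TFRC was 1.24-fold higher with NH4Cl (95% interval 1.13 to 1.37), a log2 change of 0.31 with a standard error of 0.0633 (limma adjusted p = 0.0188, and 3.55e-04 with the replicate block). The rise was seen in 6 of 6 pairs of same-numbered libraries, with log2 differences of 0.18 to 0.41 without TGF-β and 0.17 to 0.46 with it. Replicate 3 gave the smallest difference in both. Without the block, the call did not survive the removal of control replicate 1 (adjusted p = 0.0573), control replicate 2 (0.0551), TGF-β replicate 1 (0.0555), TGF-β replicate 2 (0.0513) or NH4Cl replicate 2 (0.0527), each by limma, while the log2 change stayed between 0.28 and 0.36 over all 12 such removals.

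STEAP3 (ENSG00000115107; chromosome 2, 119223831 to 119265652, plus strand), the endosomal reductase that turns ferric into ferrous iron, had 5.10, 5.18 and 3.03 FPKM in control cells and 6.26, 5.62 and 3.81 with NH4Cl. With TGF-β it had 4.74, 5.37 and 3.80 FPKM, and with both treatments 4.71, 5.68 and 4.08. The lowest value of each group was that of replicate 3, and the groups overlapped. The fold with NH4Cl, 1.09 averaged over TGF-β (95% interval 0.876 to 1.36), did not pass the threshold (limma adjusted p = 0.685), although 5 of 6 pairs were higher. Over removals of single libraries STEAP3 had log2 changes of 0.02331 to 0.2126, beside 0.1244 with all libraries. Of its 4562 exon bases, 500 are shared with the antisense gene STEAP3-AS1, and no source says that strand was used in counting, so the STEAP3 values may hold reads of both. SLC11A2 (ENSG00000110911; chromosome 12, 50979401 to 51028566, minus strand), which encodes the divalent metal transporter DMT1, held 5.45, 5.47 and 5.89 FPKM in control cells and 5.82, 5.88 and 5.42 with NH4Cl. With TGF-β it held 5.38, 5.71 and 4.71 FPKM, and with both treatments 5.78, 5.84 and 5.79. With TGF-β present the groups did not overlap, and without it they did. Its fold with NH4Cl averaged over TGF-β, 1.05 (95% interval 0.977 to 1.13), did not pass the threshold (limma adjusted p = 0.438), with 5 of 6 pairs higher. Of the 3 uptake genes TFRC alone was called. The interval of the STEAP3 fold includes the fold of TFRC without the block but not with it (0.993 to 1.20), and the difference between these genes was not tested.

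FTL (ENSG00000087086; chromosome 19, 48965301 to 48966878, plus strand) encodes the light subunit of ferritin, the shell that stores iron. Its FPKM was 1485, 1410.0 and 1633 in control cells and 1501, 1422 and 1590.0 with TGF-β. It was 1692, 1752 and 2002 with NH4Cl and 1869, 1624 and 1945 with both. The groups did not overlap without TGF-β, as for 2 of the 9 members (FTL and TFRC) and 9.58% of all genes in the higher direction, or with it, as for 3 (SLC11A2 added) and 8.90%, although 1 library with both treatments, at 1624, was under the highest control library, at 1633. FTL was 1.20-fold higher averaged over TGF-β (95% interval 1.08 to 1.34), a log2 change of 0.27 with a standard error of 0.0695. It was higher in 6 of 6 pairs, with log2 differences of 0.19 to 0.32. Without the block its limma adjusted p was 0.049998, at the very edge of the threshold, and with the block it was 3.21e-04. With libraries scaled to the same FPKM sum, the limma adjusted p without the block was 0.00235, at a log2 change of 0.27. The unblocked call was lost without a filter on FPKM (limma adjusted p = 0.251) and with a mean FPKM of at least 5 (0.0539), with the log2 change the same. It was also lost on leaving out control replicate 1 (limma adjusted p = 0.121) or 2 (0.129), TGF-β replicate 1 (0.113) or 2 (0.128), NH4Cl replicate 1 (0.0685), 2 (0.0898) or 3 (0.0988), or NH4Cl with TGF-β replicate 1 (0.107) or 3 (0.0952). The log2 change stayed between 0.23 and 0.30 over all 12 removals.

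FTH1 (ENSG00000167996; chromosome 11, 61959718 to 61967660, minus strand) encodes the heavy subunit, which oxidises iron for storage. Its FPKM was 297, 277 and 453 in control cells and 309, 282 and 457 with TGF-β. It was 381, 399 and 639 with NH4Cl and 404, 334 and 606 with both. Replicate 3 was the highest library of every group, by 0.63 to 0.72 on the log2 scale over the mean of replicates 1 and 2, a larger difference than that with NH4Cl. Groups therefore overlapped, yet each of 6 pairs was higher with NH4Cl, by 0.36 to 0.52 without TGF-β and 0.24 to 0.41 with it. The log2 change averaged over TGF-β, 0.40, was with all 12 libraries the largest of the 9 members and corresponds to 1.32-fold. Its standard error was 0.205 without the block (limma adjusted p = 0.297; 95% interval of the fold 0.965 to 1.81) and 0.0381 with it (limma adjusted p = 7.64e-05; 1.25 to 1.40). With replicate 3 of every group left out, FTH1 passed the threshold without the block as well (log2 change 0.38, limma adjusted p = 0.00548). In replicate 3 mitochondrial genes took 4.50% to 5.12% of reads, and elsewhere 2.46% to 3.18%, and the part of this in the FTH1 values was not tested.

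FTH1 values are also uncertain, since 1267 of its 2030 exon bases overlap BEST1 on the opposite strand, with strand use in counting unstated, and processed copies of FTH1 are scattered over the genome. BEST1 was low, with a mean of 0.422 FPKM. The table held 10 FTH1P copies, of which FTH1P2 was the most abundant with a mean of 12.5 FPKM (7.49 to 17.0), and their reads together came to 1.49% to 2.31% of FTH1 reads in a library. Summing the reads of FTH1 and its copies left the log2 change at 0.40 (limma adjusted p = 0.295, or 6.7e-05 when blocked). The 3 FTLP copies came to at most 0.0642% of FTL reads.

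The levels of these 3 genes can also be set against each other in each library. TFRC per 100 FPKM of FTL was 4.82, 5.10 and 5.29 in control cells and 5.34, 5.49 and 4.90 with NH4Cl. It was 4.84, 4.86 and 5.32 with TGF-β and 4.89, 5.87 and 4.90 with both. These ratios overlapped between all groups, and their difference was not tested. FTH1 per 100 FPKM of FTL was 20.0, 19.7 and 27.7 in control cells and 22.5, 22.8 and 31.9 with NH4Cl. It was 20.6, 19.8 and 28.7 with TGF-β and 21.6, 20.5 and 31.1 with both. This ratio was higher with NH4Cl in 6 of 6 pairs and highest in replicate 3 of each group, and the groups overlapped. TFRC per 100 FPKM of FTH1 was 24.1, 25.9 and 19.1 in control cells and 23.7, 24.1 and 15.4 with NH4Cl. It was 23.5, 24.5 and 18.5 with TGF-β and 22.6, 28.5 and 15.7 with both. It was lower with NH4Cl in 5 of 6 pairs, and the groups overlapped.

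NCOA4 (ENSG00000266412; chromosome 10, 46005088 to 46030714, minus strand) encodes the receptor that carries ferritin to the lysosome. It was nearly level, with 43.8, 42.1 and 40.9 FPKM in control cells and 41.9, 41.6 and 44.3 with NH4Cl. With TGF-β it had 45.6, 44.2 and 40.9 FPKM, and with both treatments 41.7, 43.1 and 41.0. All 4 groups overlapped. The fold with NH4Cl was 0.986 (95% interval 0.928 to 1.05; limma adjusted p = 0.818), and 2 of 6 pairs were higher. An NCOA4 change of the size seen for FTL was therefore outside its interval.

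SLC40A1 (ENSG00000138449; chromosome 2, 189560579 to 189583758, minus strand), which encodes ferroportin, the iron exporter, had the lowest level of the 9. It held 3.07, 3.42 and 3.21 FPKM in control cells and 3.93, 3.53 and 3.16 with NH4Cl. With TGF-β it held 2.88, 3.45 and 2.96 FPKM, and with both treatments 3.59, 3.88 and 3.02. The groups overlapped, 5 of 6 pairs were higher with NH4Cl, and the fold of 1.08 (95% interval 0.979 to 1.20) did not pass the threshold (limma adjusted p = 0.357; 0.112 with the block).

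ACO1 (ENSG00000122729; chromosome 9, 32384603 to 32454769, plus strand) encodes iron regulatory protein IRP1, an aconitase when it holds an iron-sulfur cluster. Its FPKM was 6.72, 6.27 and 5.72 in control cells, 6.34, 6.69 and 5.71 with TGF-β, 6.29, 6.67 and 5.55 with NH4Cl, and 5.84, 5.95 and 5.79 with both. IREB2 (ENSG00000136381; chromosome 15, 78437431 to 78501456, plus strand) encodes IRP2, which is broken down when iron is plentiful. Its FPKM was 13.8, 15.0 and 13.2 in control cells, 14.9, 15.1 and 12.8 with TGF-β, 15.6, 15.4 and 14.6 with NH4Cl, and 14.3, 15.9 and 14.1 with both. Groups overlapped for both genes. The fold with NH4Cl was 0.969 for ACO1 (95% interval 0.889 to 1.06; limma adjusted p = 0.708), with 2 of 6 pairs higher. It was 1.06 for IREB2 (95% interval 0.972 to 1.15; limma adjusted p = 0.455; 0.0866 with the block), with 5 of 6 pairs higher.

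**Figure D2:**
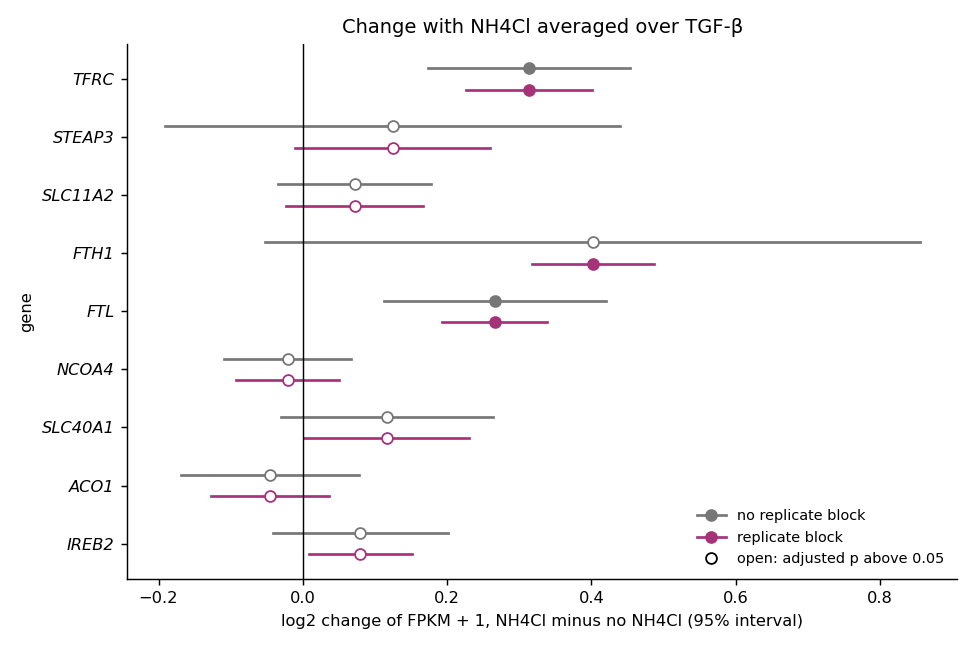
Log2 change of FPKM + 1 with NH4Cl averaged over TGF-β (horizontal axis) for the 9 genes, with 95% intervals, without and with the replicate block; filled points passed an adjusted p of 0.05. TFRC, at 0.31, and FTL, at 0.27, were filled in both models, and FTH1, at 0.40, with the block alone.

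NH4Cl against control cells, the effect without TGF-β, gave log2 changes of 0.31 for TFRC, 0.46 for FTH1 and 0.27 for FTL. None of the 9 members was called without the block, where 0.381% of all genes were (2 members had an unadjusted p under 0.05). Of the 47 genes called there 70.2% were higher (33 against 14), or 58.9% (33 against 23) with medians of the libraries made equal. With the block TFRC (limma adjusted p = 0.00676), FTH1 (0.00103) and FTL (0.00575) were called, and 7.42% of all genes were called higher. NH4Cl with TGF-β against TGF-β alone uses the other 6 libraries, and there the log2 changes were 0.32 for TFRC, 0.34 for FTH1 and 0.27 for FTL. Again no member was called without the block, where 1.03% of all genes were (2 members with an unadjusted p under 0.05). With the block the same 3 members were called (limma adjusted p = 0.00448, 0.00258 and 0.00437), and 10.3% of all genes were called higher. The groups compared have no library in common, but both comparisons come from 1 fit with a shared variance and, with the block, shared replicate effects. FTH1 depended most on single libraries, as leaving 1 out gave 0.22 to 0.68 without TGF-β and 0.10 to 0.55 with it.

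Cells with both treatments against control cells share the controls with the first of these comparisons and the treated libraries with the second. Their log2 changes were 0.30 for TFRC, 0.37 for FTH1 and 0.26 for FTL, with 0 members called without the block (0.948% of all genes) and 3 with it (limma adjusted p = 0.00618, 0.00183 and 0.00455; 10.7% of all genes higher). The difference between the effects of NH4Cl with and without TGF-β was 0.01 for TFRC (95% interval -0.167 to 0.184 with the block), -0.11 for FTH1 (-0.284 to 0.0558) and 0.00 for FTL (-0.146 to 0.146). In this interaction limma called 0 members and 0% of all genes without the block and 0 and 0% with it, with 115 and 537 genes at an unadjusted p under 0.05, none of them a member.

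**Figure D3:**
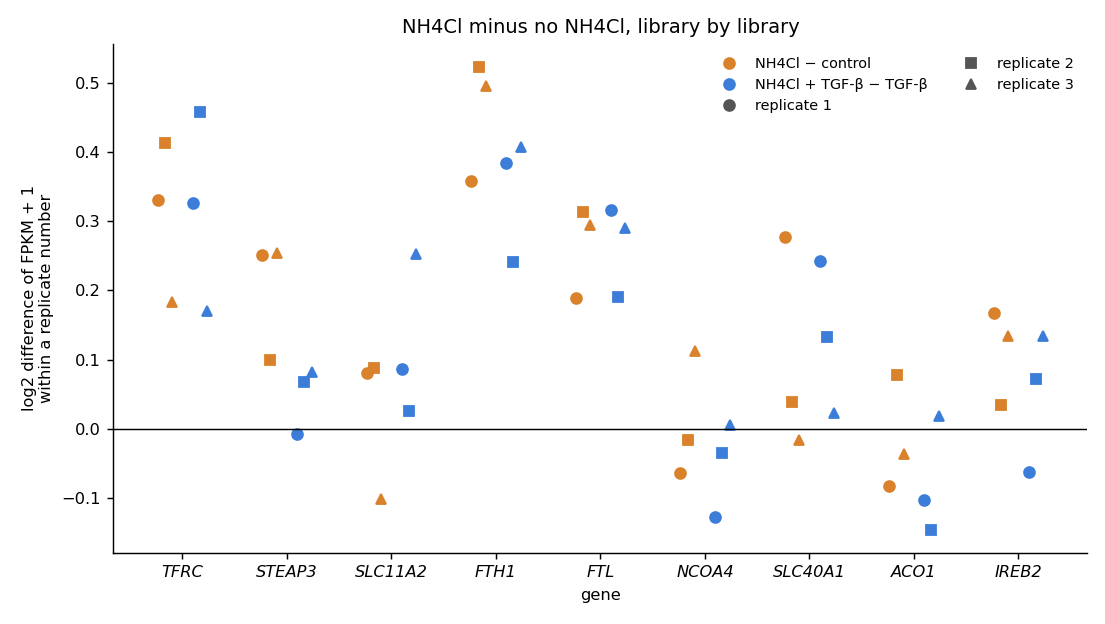
Log2 difference of FPKM + 1 between the libraries with and without NH4Cl of the same replicate number (vertical axis) for each of the 9 genes, without TGF-β (orange) and with it (blue). All 6 differences were above 0 for TFRC, FTH1 and FTL, and on both sides of 0 for the other 6 genes.

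TGF-β for 1 h left the 9 genes within the spread of the libraries. Against control cells their log2 changes ran from -0.08 (SLC11A2) to 0.07 (STEAP3), and against NH4Cl alone, in cells with NH4Cl, from -0.08 (STEAP3) to 0.02 (SLC11A2). For TFRC the fold with TGF-β was 0.985 (95% interval 0.904 to 1.07 with the block). Limma called 0 members in both, without and with the block, and in each comparison 0% of all genes without the block and 0.00810% (1 gene) with it. At an unadjusted p under 0.05 there were 103 and 422 genes against control, and 165 and 879 against NH4Cl, none of them a member.

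Other genes of iron metabolism were taken as 8 lists with 93 genes, of which 74 were tested. In NH4Cl averaged over TGF-β, 4 were called higher and 3 lower without the block, 9.46% of those tested beside the 6.14% of all genes. With the block 18 were called higher and 12 lower, 40.5% beside 31.0%. The median log2 change of the 74 was 0.00, so the lists had genes on both sides where the receptor and ferritins were up.

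Of the lists closest to the members, that of other uptake and reduction genes had 8 tested genes, of which 1 was lower without the block and 2 higher and 2 lower with it (median -0.03). STEAP1, a relative of STEAP3, was lower by -0.21 (limma adjusted p = 0.0118; 5.96e-04 with the block), and with the block alone STEAP2 (-0.14, adjusted p = 0.0186) was lower and the metal transporter gene SLC39A8 (0.12, 0.0345) higher. Partners of ferritinophagy and lysosomal release had 6 tested genes, of which none was called without the block and 1 was higher and 1 lower with it (median 0.01). They were ATG9A, at 0.14 (limma adjusted p = 0.0327 with the block), and HERC2, the ubiquitin ligase that acts on NCOA4, at -0.17 (0.0405). Of 7 tested genes that act on the iron regulatory proteins or whose mRNAs are known to carry an IRE, none was called without the block and 1 was higher and 1 lower with it (median 0.00). With the block EPAS1, which encodes HIF-2α (0.17, limma adjusted p = 0.0114), was higher, as TFRC and the ferritins were, and PFN2 (-0.15, 0.00808) was lower.

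Export, chaperone and ferritin-related genes gave 1 higher and 1 lower of 6 tested, and 1 and 2 with the block (median -0.01). HEPHL1, a ferroxidase gene, had 3.17, 3.90 and 4.24 FPKM in control cells and 2.46, 2.53 and 2.85 with NH4Cl, and fell by 0.48 on the log2 scale averaged over TGF-β (limma adjusted p = 0.00512). PCBP3, of the family of iron chaperones, was higher (0.29, limma adjusted p = 0.0458), and PCBP4 was lower with the block (-0.13, 0.014). In the hepcidin axis, 2 of 3 tested genes were higher in both models (median 0.25): BMP6, a ligand that induces hepcidin in liver, at 0.29 (limma adjusted p = 0.0148), and ERFE, at 0.25 (0.0391), the latter on 38 to 77 reads per library. The hepcidin gene HAMP itself was not tested, nor were HJV and TMPRSS6, so no change of hepcidin can be read from these genes.

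Heme genes gave 1 higher of 12 tested, and 4 higher and 2 lower with the block (median 0.02). BLVRB, biliverdin reductase B, rose by 0.46 (limma adjusted p = 0.0211), while HMOX1, the heme oxygenase that frees iron from heme (0.31, adjusted p = 0.00705), and FECH, which puts iron into heme (-0.27, 9.31e-04), were called with the block alone. Of 22 mitochondrial iron and iron-sulfur cluster genes, 1 was lower, and 4 were higher and 4 lower with the block (median -0.02). IBA57 was lower (-0.30, limma adjusted p = 0.0152), and with the block FDXR was lower (-0.15, 0.015) and NFS1, the cysteine desulfurase, higher (0.15, 0.0146). Genes known to respond to hypoxia and iron chelation gave none of 10, and 3 higher with the block (median 0.105): ANKRD37 (0.35, limma adjusted p = 0.00447), VEGFA (0.34, 2.36e-04) and EGLN1 (0.10, 0.0409). All 3, like FTH1, were highest in replicate 3 of every group. In control cells VEGFA had 5.21, 4.92 and 10.3 FPKM, ANKRD37 1.24, 0.970 and 3.37, and EGLN1 8.45, 8.45 and 13.25. With NH4Cl VEGFA had 6.77, 6.46 and 13.0 FPKM, ANKRD37 1.56, 0.973 and 4.801, and EGLN1 8.89, 8.585 and 13.24. In pairs over both comparisons, VEGFA and ANKRD37 were higher in 6 of 6 and EGLN1 in 5 of 6.

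**Figure D4:**
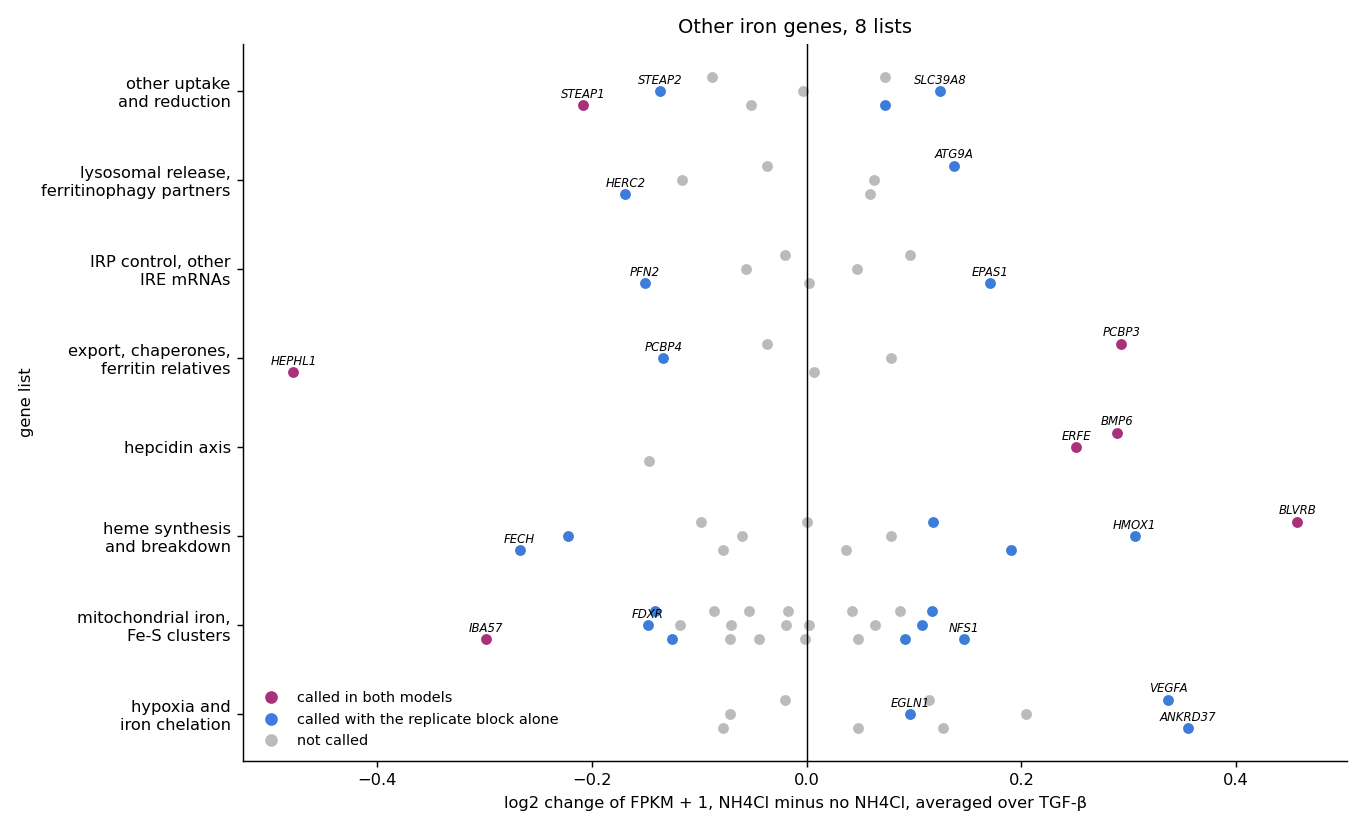
Log2 change of FPKM + 1 with NH4Cl averaged over TGF-β (horizontal axis) of the 74 tested genes of the 8 iron lists (vertical axis); points are genes, coloured by whether the call held in both limma models or with the replicate block alone. Points lay on both sides of 0 in every list, from -0.48 (HEPHL1) to 0.46 (BLVRB).

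Across the 12 libraries, after the mean of each replicate number was subtracted, the genes most like TFRC of 12340 compared were IGFL2-AS1 (Pearson r = 0.993), TRIB3 (0.988), RAB3IL1 (0.988), YARS (0.987) and AP002387.1 (0.987). FTL followed TFRC in place 503 (0.894) and FTH1 in place 557 (0.887), while ACO1 (-0.497) and NCOA4 (-0.352) had negative coefficients. Neither ACO1 nor NCOA4 was called changed with NH4Cl, without or with the block. Those most like FTH1 were TMEM189 (0.995), ERG28 (0.987), FTL (0.985), FBXO27 (0.981) and LEMD1 (0.976). Thus the ferritin subunits followed each other more closely than either followed the receptor. The libraries share their groups and replicate numbers, so these coefficients describe the pattern and carry no test.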

How the data were processed

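RNA sequencing libraries of HCT116 cells, 12 in 4 groups, were grouped and numbered from their labels; doses and times came from the study's methods. The authors deposited FPKM per gene. Their methods name HTSeq and DESeq2, whereas the submitters' processing notes list Trimmomatic 0.36, STAR 2.5.2b, Subread 1.5.2 with featureCounts, and DESeq2 on GRCh38; the strand setting is not given in the sources used here. Nothing says whether replicates were separate cultures, so p-values measure the spread between these libraries, which may be technical. All 25733 identifiers matched GENCODE release 29, and with its exon lengths 100% of FPKM values were whole reads (within 0.05), which gave depth.

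Values were analysed as log2(FPKM + 1), which understates changes of low genes, for 12341 genes with mean FPKM of at least 1. The 4 group means were fitted with limma 3.58.1 in R 4.3.3 with an intensity trend, and 7 comparisons were drawn from the fit, with Benjamini-Hochberg adjustment over all genes tested and a threshold of 0.05. The fit was tested on simulated data, but the outcome is not reported here, so no result rests on that test. Other steps used Python 3.11.15, numpy 2.4.6, pandas 2.3.3 and matplotlib 3.10.9. Deviations from group means correlated over genes in all 18 pairs of same-numbered libraries, at 0.349 to 0.774. Replicate 3 stood apart in every group, and this alone makes such deviations correlate, also among replicates 1 and 2. Libraries of different number were not compared, so these values do not show that numbers 1 and 2 pair the libraries. No source says what a number stands for, and the blocked fits and the counts of pairs take the numbers as pairs. Alternatives were the replicate number as a block, a pseudocount of 0.1, no filter or a mean FPKM of at least 5, scaling to the same sum (TPM), median centring, only the groups compared, no intensity trend, replicates 1 and 2 only, and each library left out in turn; summing FTH1 with its copies was added after seeing the data. From each list, at most 3 called genes with the largest change with NH4Cl were named, and 5 genes for each pattern of likeness. The members and lists were chosen with earlier results of these data known. A gene of the lists and a sequence are not reported here, and the gene was left out of the list counts.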

Additional observations from a re-analysis of the deposited data

How the results depend on the processing

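With NH4Cl averaged over TGF-β, 758 genes and 2 members were called. Genes called were 500 with a mean FPKM of at least 5, 489 with TPM scaling and 3282 with replicates 1 and 2 only. Members called were 1 without a filter and 1 with a mean FPKM of at least 5. On leaving out single libraries, 344 to 902 genes and 0 to 2 members were called. The log2 changes then ran from 0.0387 to 0.09742 for SLC11A2 and from 0.0436 to 0.1042 for IREB2. They ran from -0.04316 to -0.004215 for NCOA4 and from -0.07254 to -0.01341 for ACO1.

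NH4Cl against control called 47 genes and 0 members: 23 genes without a filter, 0 with only the groups compared, 1293 genes and 2 members with replicates 1 and 2 only, and 1 member with TPM scaling. For NH4Cl with TGF-β against TGF-β (127 genes, 0 members) the counts were 51 genes without a filter, 0 with only the groups compared, 68 genes and 1 member with TPM scaling, and 1740 genes and 1 member with replicates 1 and 2 only. For both treatments against control (117 genes, 0 members) they were 39, 0, 58 genes and 1 member, and 1630 genes and 2 members. Leaving out single libraries gave 0 to 89, 3 to 133 and 2 to 155 genes in these comparisons, 0 to 1 for TGF-β against control and for the interaction, and no member.

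The replicate block, which takes same-numbered libraries as pairs, raised the genes called to 3830 averaged over TGF-β (3598 with TPM scaling, 3789 with a pseudocount of 0.1). With replicates 1 and 2 only it gave 3206, beside 3282 without the block. The blocked counts in the same order were 1674, 1473, 1654 and 1147 for NH4Cl against control, 2322, 2060, 2291 and 1653 in the presence of TGF-β, and 2274, 2058, 2253 and 1605 for both treatments against control. Members called with the block were 3 in these comparisons, or 2 with replicates 1 and 2 only for NH4Cl against control and in the presence of TGF-β, where FTL was lost. For TGF-β against control, 1 gene was called in all 4 blocked fits, against NH4Cl 1 with the block and with a pseudocount of 0.1, and in the interaction 1 with replicates 1 and 2 only. The block added FTH1 to the members called averaged over TGF-β, and TFRC, FTL and FTH1 in the 3 single NH4Cl comparisons, and changed no other call of a member.

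Some directions turned, all of changes that were not called. For NH4Cl against control NCOA4 became -0.003741 with median centring and -0.0401 with replicates 1 and 2 only, with or without the block. For TGF-β against control, replicates 1 and 2 only gave -0.02198 for STEAP3, 0.01937 for SLC11A2 and 0.01417 for FTL, blocked or not, and median centring gave -0.002582 for ACO1. Leaving out single libraries gave, for NH4Cl against control, -0.0008402 to 0.3776 for STEAP3 (0.2014 with all libraries, lowest without control replicate 3), -0.01671 to 0.03712 for NCOA4 and -0.06604 to 0.05012 for ACO1. In the presence of TGF-β it gave -0.0637 to 0.1415 for STEAP3 and -0.02471 to 0.0873 for IREB2. For TGF-β against control it gave -0.106 to 0.06571 for TFRC, -0.1332 to 0.1803 for STEAP3, -0.1784 to 0.2491 for FTH1, -0.05111 to 0.05477 for FTL, -0.04994 to 0.05704 for ACO1 and -0.01507 to 0.09694 for IREB2.

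Without the block, the calls of TFRC and FTL depended on single libraries, and libraries were not left out singly with the block. What sets replicate 3 apart is unknown, and the cause was not tested. RNA amounts do not show translation, protein or iron, and 1 line at 1 dose and time was measured.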
